A study of Mus musculus with 32 samples.

Results

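The mitochondrial ribosomal protein genes were taken by name, as every row whose symbol was Mrpl or Mrps followed by a number, with an optional letter a, b or c. There were 77 of them among 25284 gene names in 4 tables of RNA counts from mouse cells. The leukaemia table listed 76 of them, the bone marrow table all 77, the fetal liver table of the total knockout 75 and that of the f-PRDM16 knockout all 77. Mrpl57 was not listed under that symbol in the leukaemia table or the total-knockout table, both of which held a row with its older symbol, Mrp63. Mrpl35 was not among the rows of the total-knockout table. Of the 77, 50 encode proteins of the large subunit and 26 proteins of the small subunit. The remaining one, Mrps36, is now placed in the 2-oxoglutarate dehydrogenase complex. Mrps30 and Mrps18a carry small-subunit names but sit in the large subunit, and were counted there.

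Mitochondria have their own ribosome, which translates the few membrane proteins of the respiratory chain that mitochondrial DNA encodes. Its ribosomal RNAs come from mitochondrial DNA, whereas all of its proteins are encoded in the nucleus, made in the cytosol and imported. Some of these proteins have a bacterial homologue and others occur only in mitochondria. Blood stem cells are known to rely less on respiration than their dividing progeny, and acute myeloid leukaemia cells are known to depend on mitochondrial translation.

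The 32 libraries fell into 10 groups of numbered replicates. The series concerned PRDM16, a zinc-finger transcription factor made as f-PRDM16, the full-length protein with a PR domain, and as s-PRDM16, the shorter protein without it. Leukaemia cells carrying the MLL-AF9 fusion were taken directly from moribund mice, 3 libraries in each of 4 groups: wild type with empty vector (WT+EV), PRDM16-KO with empty vector (KO+EV), PRDM16-KO overexpressing f-PRDM16 (KO+f) and PRDM16-KO overexpressing s-PRDM16 (KO+s). All 12 carried MLL-AF9 and a vector. Haematopoietic stem cells (HSCs) were sorted as Lin-cKit+Sca1+CD48- and not cultured. They came from adult bone marrow (4 wild type, 4 PRDM16-KO), from fetal liver of the total knockout (3 wild type, 3 PRDM16-KO), and from fetal liver of the f-PRDM16 knockout, in which the KO cells express s-PRDM16 only (3 KO, with 3 wild types of their own). The age of the animals, the Cre driver, the deleted exons and any pooling of animals are not stated in the labels. The purpose, as far as the title states it, was to see how RNA levels differ without PRDM16 or one isoform, and when an isoform is put back.

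Libraries held 16.4 to 23.8 M (mega) counts in leukaemia, 22.5 to 29.3 in bone marrow, 26.7 to 33.2 in the total-knockout table and 35.5 to 45.0 in the f-PRDM16-knockout table. Prdm16 read 0.429 to 1.04 CPM (counts scaled to a common library total) in WT+EV, 0 to 0.0951 in KO+EV, 242 to 335 in KO+f and 179 to 295 in KO+s. In bone marrow it did not separate the labels, at 10.5 to 53.4 CPM in wild types and 13.4 to 41.3 in the libraries labelled KO, and reads outside a deleted part would not show the deletion. In fetal liver it was 25.5 to 39.8 against 10.8 to 24.6 for the total knockout, and 13.2 to 34.7 against 6.29 to 9.81 for the f-PRDM16 knockout. The summed CPM of 10 HSC markers was 1284 to 4655 in HSC libraries, with none of them at 0 in every library of a group, against 144 to 538 in leukaemia. Cd48, the marker the sort excluded, still read 5.87 to 181 CPM in HSC libraries. The library KO+EV 3 stood apart in granulocyte genes, with a summed CPM of 54454 for 12 markers against 13132 and 13145 in KO+EV 1 and 2. In bulk RNA, fewer cells of a type and less RNA per cell cannot be told apart.

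Promoter windows of members were set beside those of all genes, whether expressed here or not. RefSeq windows of 250 bases before to 50 after the gene start (GRCm38.p6) were found by symbol for 68 of the 77. Their median GC content was 58.2% and their median number of CpG dinucleotides 21, against 52.7% and 7 over all 27025 windows. The letters TATAAA occurred in 3 of the 68 and in 2400 of the 27025. Motifs were searched as exact letters on both strands. CCGGAAGT, the letters bound by ETS factors such as GABP, was in 11 of the 68 (16.2%, against 4% of all windows). AAGATGGCG, bound by YY1, was in 8 (11.8% against 1.49%). The palindromic NRF1 motif was in 3 (4.41% against 0.977%). GGGGCGGGG, bound by SP1 and KLF factors, was in 13 (19.1% against 11.6%). The E-box CACGTG was in 5 (7.35% against 7.24%). TCAAGGTCA, bound by ERR receptors, was in 0 (0.407% of all).

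The 4 windows shown here belong to genes that were lower in KO+s leukaemia than in KO+EV, described further on, and were chosen among those with a motif after their values were seen. Capitals mark the motif letters, given on the strand of the gene. The match in Mrps5 is the reverse complement of the SP1 and KLF letters, starting 243 bases before the gene start. In Mrpl51 the ETS letters begin 90 bases before it. Mrps27 holds the reverse complement of the ETS letters 49 bases before the start and the YY1 letters 14 bases after it. In Mrpl52 the reverse complement of the ETS letters begins 1 base after the start. No matches overlapped in these windows.
Mrps5 (chr2:127587176-127587475, plus strand): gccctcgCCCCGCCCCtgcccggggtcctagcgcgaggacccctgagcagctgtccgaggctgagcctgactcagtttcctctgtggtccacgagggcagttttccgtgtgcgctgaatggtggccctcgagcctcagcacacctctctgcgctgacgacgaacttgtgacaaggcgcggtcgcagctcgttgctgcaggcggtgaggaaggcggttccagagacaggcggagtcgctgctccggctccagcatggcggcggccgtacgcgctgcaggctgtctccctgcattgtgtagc
Mrpl51 (chr6:125191950-125192249, plus strand): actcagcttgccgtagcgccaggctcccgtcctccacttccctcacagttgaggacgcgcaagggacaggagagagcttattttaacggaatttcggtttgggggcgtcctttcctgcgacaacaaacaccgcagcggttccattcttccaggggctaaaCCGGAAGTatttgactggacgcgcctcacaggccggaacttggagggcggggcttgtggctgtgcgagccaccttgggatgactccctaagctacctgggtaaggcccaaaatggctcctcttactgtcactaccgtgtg
Mrps27 (chr13:99344536-99344835, plus strand): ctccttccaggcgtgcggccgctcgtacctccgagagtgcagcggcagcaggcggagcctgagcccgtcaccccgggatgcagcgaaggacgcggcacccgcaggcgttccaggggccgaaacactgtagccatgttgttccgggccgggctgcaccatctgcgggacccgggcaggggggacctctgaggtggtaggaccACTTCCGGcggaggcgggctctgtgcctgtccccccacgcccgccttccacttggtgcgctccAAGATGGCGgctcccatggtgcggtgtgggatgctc
Mrpl52 (chr14:54426659-54426958, plus strand): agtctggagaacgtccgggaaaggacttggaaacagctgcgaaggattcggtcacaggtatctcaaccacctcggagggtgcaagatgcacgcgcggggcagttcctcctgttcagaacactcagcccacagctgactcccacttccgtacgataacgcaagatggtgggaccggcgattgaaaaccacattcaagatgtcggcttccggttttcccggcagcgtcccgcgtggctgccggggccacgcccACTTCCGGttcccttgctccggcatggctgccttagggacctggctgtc

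Of the 28 windows of members that fell in KO+s, 8 held the ETS letters, and of the 39 windows of other members tested there, 3 did. For the YY1 letters these counts were 3 and 5, for the SP1 and KLF letters 6 and 7, for the E-box 2 and 3, and for the NRF1 motif 0 and 3. These splits were not tested. A match shows letters only, not a bound factor.

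Summed over members, the RNA of the mitochondrial ribosome was lowest in KO+s leukaemia. The sum was 2417 ± 222 CPM (SD, n = 3) in KO+s, with 2239, 2346 and 2665 in its libraries. It was 2831 ± 132 in KO+f (2685, 2941 and 2866), 3264 ± 135 in KO+EV (3243, 3408 and 3140) and 3330.2 ± 438 in WT+EV (3821, 2977 and 3193). The KO+s, KO+f and KO+EV libraries did not overlap, and those of KO+EV lay within the range of WT+EV. The gap between KO+s and KO+f was small and depended on scaling: after TMM scaling the KO+s libraries read 2365, 2452 and 2847 and the KO+f libraries 2650.2, 2841 and 2778, which overlap.

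HSC libraries gave larger sums, but they were amplified with a SMARTer low-input step before library preparation and leukaemia libraries were not, so levels were not tested between tables. The total-knockout fetal table gave 4324 ± 563 CPM in wild types and 4420 ± 377 in knockouts (SD, n = 3 each). Bone marrow gave 5242 ± 1116 in wild types and 4872 ± 216 in the libraries labelled KO (n = 4 each). The f-PRDM16 set gave 6544 ± 504 in wild types and 6453 ± 878 in knockouts (n = 3 each). Within each of these 3 tables the ranges of both groups overlapped, and bone marrow wild types spread widest, from 3772 to 6310.2.

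**Figure D1:**
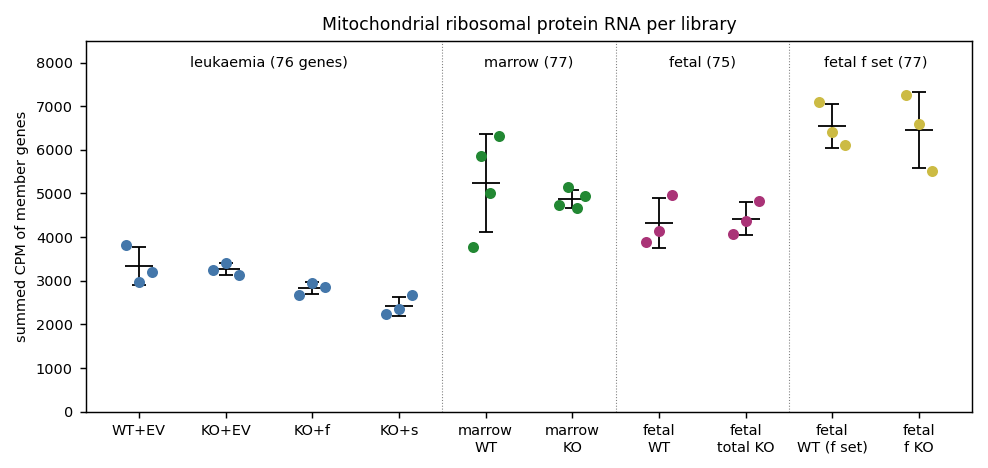
Summed CPM of the listed member genes (vertical axis) in each library (points) of the 10 groups, with the mean and SD of each group in black and dotted lines between the 4 count tables. The 3 KO+s libraries, at 2239 to 2665, lie under every other leukaemia library, and wild-type and knockout HSCs overlap in each table.

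Per length of exon, a small set of genes gave the highest levels in every table. Mrpl33, a small protein with a bacterial homologue, had the highest mean CPM per kilobase in leukaemia (352.2 ± 99.96, SD over 12 libraries), bone marrow (203 ± 49.5, 8 libraries) and the f-PRDM16 table (260 ± 19.0, 6 libraries). In the total-knockout table it came after Mrps28 (246 ± 41.5) at 156 ± 38.2. Mrpl42 was among the highest 3 in each HSC table, with 155 in bone marrow, 108 in the total-knockout table and 239 in the f-PRDM16 table. Over the 12 leukaemia libraries Mrpl18 (70.2) and Mrpl30 (60.7) came next, but the order after Mrpl33 varied by group: Mrpl12 (70.8 ± 2.95) was in the third place in KO+EV, and in KO+s Mrps21 (53.9 ± 11.5), Mrpl30 (51.9 ± 11.7) and Mrpl18 (48.5 ± 7.78) lay within each other's SD (n = 3). In the HSC tables, bone marrow had Mrpl52 in the third place (146), as the f-PRDM16 table had Mrpl28 (158). Mrpl47 was among the lowest 3 in all 4 tables (4.58 in leukaemia, 5.26 in bone marrow, 6.37 and 10.2 in fetal liver). Mrps36 was the lowest in bone marrow (5.17) and in the f-PRDM16 table (7.09), and Mrpl23 in leukaemia (1.5003). Mrpl1 was among the lowest 3 in bone marrow (8.65) and the total-knockout table (9.39), and Mrpl48 in both fetal tables (9.31 and 10.6). Mrpl23, Mrpl48 and Mrps36 have annotated pseudogenes, so their counts are uncertain.

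Loss of PRDM16 alone was followed by no called change of a member in leukaemia. KO+EV against WT+EV gave 0 of 76 members lower and 0 higher at an adjusted p under 0.05 by edgeR's quasi-likelihood test, which called 1.20% of all genes lower and 0.903% higher (2.10% in all). All adjusted p-values given here are from that test with Benjamini-Hochberg adjustment over all genes tested. DESeq2 also called 0 members, and 4 members had an unadjusted p under 0.05, as did 18.1% of all genes. The libraries did not overlap for 2 members lower (12.4% of all genes) and 5 higher (10.7%). The median member changed by 0.02 (log2), against 0.00 for all genes, and 35 of 76 were below zero (49.7% of all genes).

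The members nearest the threshold lay on both sides. Mrpl17 read 75.3, 71.2 and 79.4 CPM in WT+EV and 88.8, 99.5 and 98.3 in KO+EV (log2 change 0.37 ± 0.13 SE, adjusted p = 0.150), so that all KO+EV libraries were above. Mrpl44, an RNase III-like protein at the tunnel exit, read 55.0, 48.0 and 42.2 against 60.7, 60.3 and 74.97 (0.47 ± 0.17, adjusted p = 0.161). Mrps18a was 0.33 higher (adjusted p = 0.165). On the other side stood Mrpl33 (-0.52), Mrpl32 (-0.37) and Mrpl30 (-0.33), with adjusted p-values of 0.228, 0.321 and 0.388.

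Putting back s-PRDM16 was followed by a fall across both subunits. Against KO+EV, 34 of 76 members were lower in KO+s and 0 higher (44.7% lower), while 16.6% of all genes were called lower and 15.9% higher. The median member changed by -0.39 (log2) against -0.01 for all genes, and 68 of 76 members lay below zero (50.6% of all genes). In 53 of 76 members every KO+s library lay below every KO+EV library, which held for 30.2% of all genes, and in 0 members was it the reverse (20.9% of all genes). In 43 of 76 members the KO+s libraries also lay below every WT+EV library (20.8% of all genes), and in 25 of 76 below all 9 other leukaemia libraries (11.9%).

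**Figure D2:**
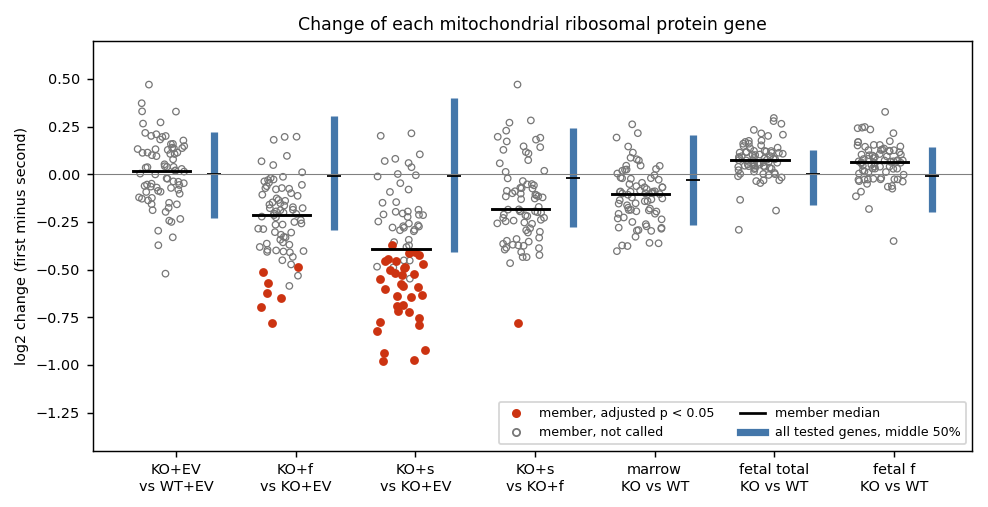
Log2 change of each member (circles) in 7 comparisons, filled red where the adjusted p is under 0.05 by edgeR's quasi-likelihood test, with the member median as a black line and the middle 50% of all tested genes as a blue bar. Called members appear in KO+s against KO+EV (34), KO+f against KO+EV (7) and KO+s against KO+f (1), all lower.

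The steepest fall among members was that of Mrps5, a small-subunit protein whose bacterial homologue lies near the mRNA entry channel. It read 30.6, 34.4 and 36.02 CPM in KO+EV and 13.9, 18.1 and 16.4 in KO+s, with no overlap. It was 1.97-fold lower (log2 change -0.98 ± 0.15, adjusted p = 0.000819). WT+EV libraries, at 34.2, 29.1 and 32.2, were like KO+EV, and KO+f libraries lay between at 23.3, 26.4 and 22.8.

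Other small-subunit members fell with it. Mrps27, a pentatricopeptide-repeat protein found only in mitochondria, read 29.5, 30.9 and 29.3 CPM in KO+EV and 13.3, 19.0 and 16.5 in KO+s (-0.79 ± 0.14, adjusted p = 0.00178). Mrps7, a primary rRNA-binding protein of the head in bacteria, read 46.6, 49.2 and 58.5 against 28.2, 29.5 and 29.0 (-0.75 ± 0.14, adjusted p = 0.00289). Both had groups that did not overlap. Mrps6 was low in every library, at 12.6, 16.6 and 12.3 CPM in KO+EV, and read 6.14, 6.26 and 7.43 in KO+s (-0.97 ± 0.22, adjusted p = 0.00657). Mrps11 fell by 0.82 and Mrps25, a mitochondria-specific protein, by 0.59 (adjusted p = 0.00746 and 0.00715). Mrps12, the homologue of the decoding-centre protein S12, fell by 0.45 (adjusted p = 0.0416), and Mrps2 by 0.59 (0.0141).

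In the large subunit, Mrpl52 and Mrpl38 had the largest falls. Mrpl52, found only in mitochondria, read 24.9, 27.8 and 21.4 CPM in KO+EV and 11.2, 10.1 and 14.9 in KO+s (-0.94 ± 0.17, adjusted p = 0.00204). Mrpl38, a protein of the central protuberance, read 36.6, 40.1 and 28.9 against 16.5, 20.1 and 15.8 (-0.92 ± 0.16, adjusted p = 0.00198). Neither overlapped between these groups. Mrpl51 read 74.0, 81.4 and 64.9 CPM in KO+EV and 38.7, 42.3 and 44.4 in KO+s (-0.72 ± 0.12, adjusted p = 0.00160). Mrpl28 varied little within groups, at 49.5, 51.7 and 52.9 against 30.6, 31.5 and 31.2 (-0.64 ± 0.11, adjusted p = 0.00136). Mrpl17 read 88.8, 99.5 and 98.3 against 55.9, 49.8 and 62.2 (-0.69 ± 0.13, adjusted p = 0.00247). For all 3 the KO+s libraries lay well under the KO+EV libraries.

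The stalk, the tunnel exit and the central protuberance of the large subunit each held members that passed and members that did not. At the stalk, which recruits translation factors, Mrpl12 read 89.9, 97.5 and 92.4 CPM in KO+EV and 41.5, 51.4 and 61.0 in KO+s (-0.78 ± 0.16, adjusted p = 0.00374). The proteins at the stalk's base, Mrpl10 (-0.27) and Mrpl11 (-0.21), did not pass (adjusted p = 0.117 and 0.532). Of the core proteins around the peptidyl transferase centre, Mrpl2 fell by 0.49, Mrpl3 by 0.45 and Mrpl4 by 0.60 (adjusted p = 0.00501, 0.0144 and 0.00647). Mrpl2 read 51.6, 49.9 and 49.0 CPM in KO+EV against 34.3, 34.0 and 32.7 in KO+s. At the tunnel exit, Mrpl45, which tethers the ribosome to the inner membrane, fell by 0.41 and Mrpl47 by 0.72 (adjusted p = 0.0191 and 0.0426). There Mrpl22 (-0.49), Mrpl23 (-0.36), Mrpl24 (-0.22) and Mrpl44 (-0.29) did not pass, with adjusted p-values of 0.0550, 0.419, 0.285 and 0.199. In the central protuberance, Mrpl18 fell by 0.64 beside Mrpl38 (adjusted p = 0.00685), and Mrpl40 (-0.27), Mrpl46 (-0.49) and Mrpl48 (-0.28) did not pass (adjusted p = 0.128, 0.0692 and 0.167).

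**Figure D3:**
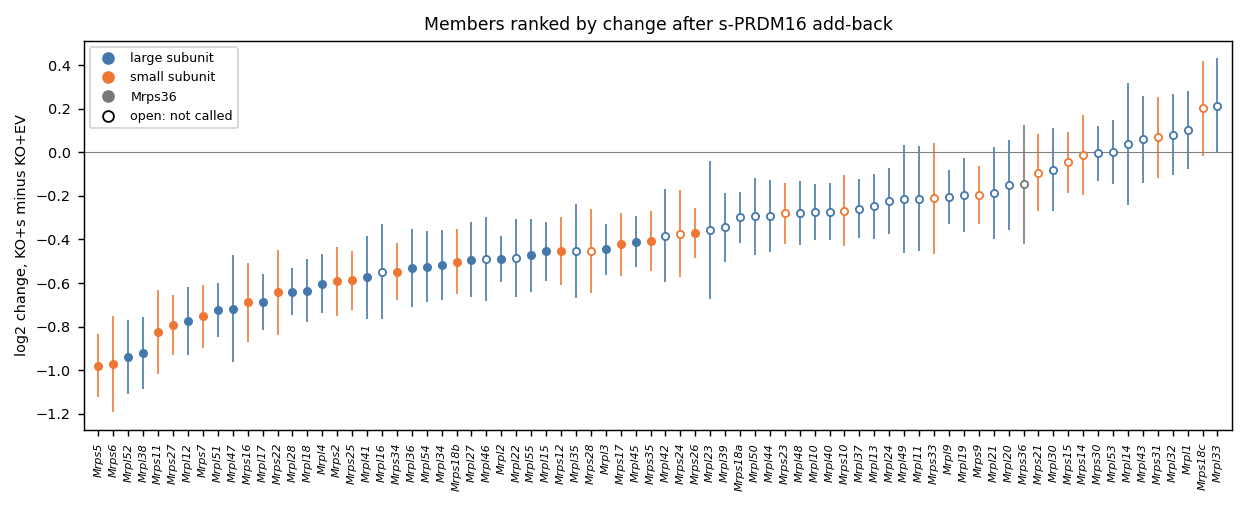
All 76 members listed in leukaemia, ordered by their log2 change in KO+s minus KO+EV (points, bars are standard errors), blue for the large subunit, orange for the small and grey for Mrps36, filled where called. The order runs from Mrps5 at -0.98 to Mrpl33 at 0.21, and filled points of both subunits lie to the left.

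Members of both subunits and of both origins were among those that fell. In the large subunit 19 of 49 were lower (38.8%) and in the small subunit 15 of 26 (57.7%), with medians of -0.36 and -0.44. Of members with a bacterial homologue 21 of 46 were lower (45.7%), and of mitochondria-specific ones 13 of 29 (44.8%). The counts were also equal, at 17 of 38 each, for members above and below the median CPM. The difference between subunits was not tested. Mrps36 read 2.75, 3.04 and 3.68 CPM in KO+EV and 3.41, 2.14 and 2.54 in KO+s (-0.15, adjusted p = 0.718), with overlapping groups. The other 14 of the 34 were Mrps16, Mrps17, Mrps18b, Mrps22, Mrps26, Mrps34, Mrps35, Mrpl15, Mrpl27, Mrpl34, Mrpl36, Mrpl41, Mrpl54 and Mrpl55, with changes from -0.69 to -0.37.

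The 3 paralogues of bacterial S18 gave 1 call, and differences between them were not tested. Mrps18b fell by 0.50 (adjusted p = 0.0233), Mrps18a changed by -0.30 without passing (0.0697), and Mrps18c was 0.20 above KO+EV without passing (0.514). Mrps18c read 42.5, 42.4 and 39.7 CPM in KO+EV and 40.025, 35.4 and 59.2 in KO+s, so the library KO+s 3 alone lay above. Mrpl33 (0.21, adjusted p = 0.480) read 162, 168 and 117 against 142, 137 and 205, again with KO+s 3 highest. Mrpl1, whose bacterial homologue forms the L1 stalk, was at 0.10 (0.693). Without KO+s 3 the values of Mrps18c, Mrpl33 and Mrpl1 became -0.06, -0.0066 and -0.08. Mrps30 was level, at 45.5, 43.8 and 44.9 CPM in KO+EV and 42.0, 43.8 and 40.2 in KO+s (-0.01, adjusted p = 0.979).

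**Figure D4:**
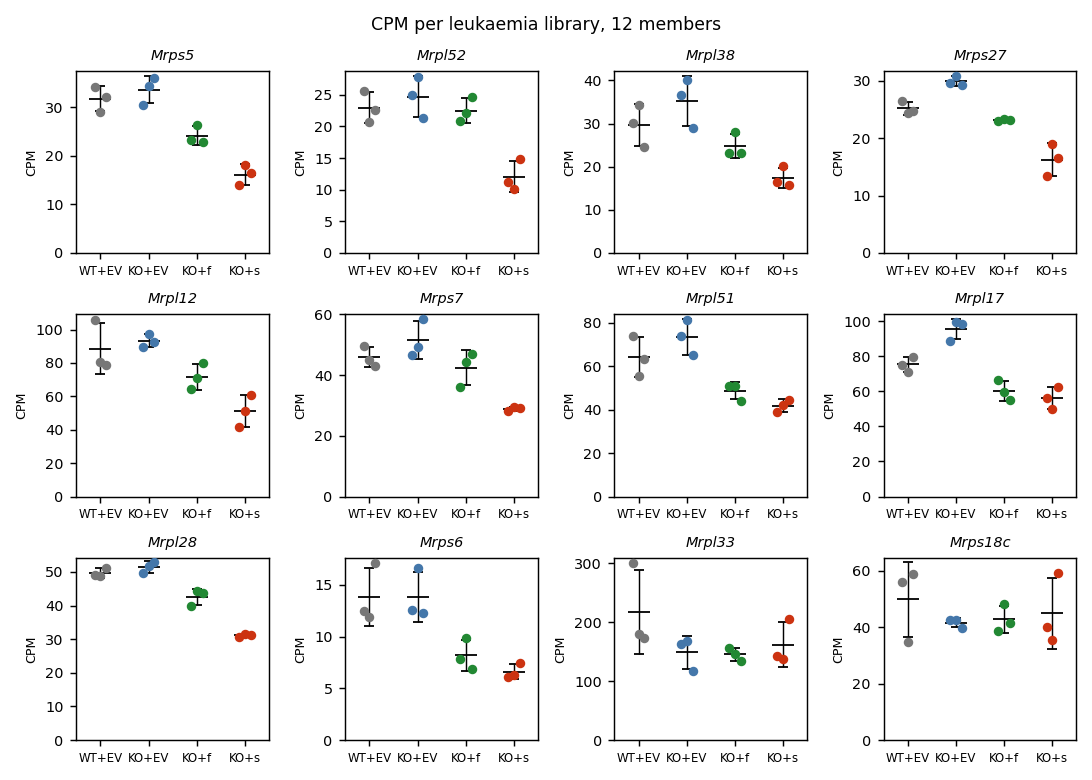
CPM (vertical axis, from 0) in each leukaemia library (points) for 12 members, with group means and SD in black. Mrps5, Mrpl52, Mrpl38 and Mrps27 are lowest in the 3 KO+s libraries, whereas Mrpl33 and Mrps18c overlap between groups.

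The count of 34 depended on single libraries, though the 15 members with the smallest p passed in all 6 fits that left out one library. It was 16 without KO+s 1, 22 without KO+s 2 and 22 without KO+EV 2, and 26 without KO+EV 3, the library that stood apart. All genes called in either direction fell in the same fits, to 2732, 3497, 3052 and 3821, from 4200 with every library.

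Proliferation and myeloid genes moved in the same comparison. Of 16 proliferation markers 14 were lower and 0 higher in KO+s than in KO+EV (median -0.68), and their summed CPM was 3717 to 4228 in KO+s, 4240 to 5105 in KO+f and 6081 to 6575 in KO+EV. Aurkb fell by 1.13, Plk1 by 1.06 and Ccna2 by 0.84 (adjusted p = 0.000643, 0.000757 and 0.00111). Of 12 granulocyte markers 7 were higher and 1 lower, and their sum was 24122 to 27020 in KO+s. In KO+EV the sum was 13132, 13145 and, in KO+EV 3, 54454, so the KO+s sums lay within the KO+EV range. The sum was 12709 to 17889 in KO+f, where 1 of the 12 was higher than in KO+EV. Against KO+f, 6 of the 12 were higher in KO+s. Of 7 monocyte and macrophage markers 6 were higher, with sums of 630 to 663 in KO+s and 107 to 251.2 in KO+EV. In KO+f 4 of these 7 were higher than in KO+EV (sums 309 to 548), and 3 of the 16 proliferation markers were lower, with all 16 below zero. None of these 3 lists had a gene at 0 in every library of a leukaemia group. The part of these shifts in the falls of the mitochondrial ribosomal genes in KO+s and KO+f was not tested.

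Putting back f-PRDM16 was followed by fewer called falls, in the same direction. Against KO+EV, 7 of 76 members were lower in KO+f and 0 higher (9.21% lower), where 4.39% of all genes were lower and 6.88% higher. The median member changed by -0.21 against -0.01 for all genes, and 69 of 76 were below zero (51.1% of all genes). In 28 of 76 members the KO+f libraries lay below every KO+EV library, against 15.8% of all genes, and in 0 above (18.2%). In 16 of 76 they also lay below every WT+EV library (7.46% of all genes).

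Both subunits were among the 7. Mrpl17 read 66.2, 59.4 and 55.1 CPM in KO+f, below all KO+EV libraries (-0.70 ± 0.13, adjusted p = 0.00770). Mrpl51 read 51.0, 50.7 and 44.1 (-0.62 ± 0.12, adjusted p = 0.0112), and Mrpl15 read 43.2, 41.6 and 36.6 against 56.2, 64.0 and 56.6 in KO+EV (-0.57 ± 0.13, adjusted p = 0.0211). With 1 library left out these 3 passed in 6, 5 and 3 of 6 fits. Mrps6 fell by 0.78, Mrpl41 by 0.65, Mrps5 by 0.51 and Mrps25 by 0.49, with adjusted p-values of 0.0423, 0.0499, 0.0422 and 0.0402. Those 4 passed in at most 1 of the 6 fits. The count was 1 without KO+EV 2, 2 without KO+EV 3, 2 without KO+f 2, 3 without KO+f 1 and 4 without KO+f 3. All genes called in either direction in these fits were 563, 932, 559, 698 and 1533, against 1461 with every library. The share of all genes called lower was not computed for them, so an excess of members is shown only for the main fit. Mrpl11 (0.20), Mrps31 (0.20) and Mrpl43 (0.18) lay above zero, with adjusted p-values of 0.624, 0.518 and 0.582.

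Both add-back comparisons share the KO+EV libraries, so their members cannot count as independent. Each of the 7 was also among the 34. Side by side, Mrpl17 changed by -0.70 with f-PRDM16 and -0.69 with s-PRDM16, Mrpl51 by -0.62 and -0.72, Mrpl15 by -0.57 and -0.46, and Mrps5 by -0.51 and -0.98. With WT+EV libraries as the control instead, 23 of 76 members were lower in KO+s (20 of them among the 34) and 5 of 76 in KO+f (3 among the 7). Against these shares stand 11.9% of all genes lower in KO+s and 3.86% in KO+f. Mrpl17 lay below every WT+EV library with either isoform but was not called against WT+EV (-0.33 in KO+f, adjusted p = 0.124, and -0.31 in KO+s, adjusted p = 0.0955).

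Compared directly, s-PRDM16 gave lower levels than f-PRDM16 for 1 of 76 members, where 1.76% of all genes were lower and 2.05% higher (3.81% in all), and for 0 members higher. That member was Mrpl52, at 20.8, 22.1 and 24.6 CPM in KO+f and 11.2, 10.1 and 14.9 in KO+s (-0.78 ± 0.17, adjusted p = 0.0310). It passed in 2 of the 6 fits with one library left out, those without KO+f 1 and without KO+s 3. Mrpl2 (-0.38 ± 0.11, adjusted p = 0.0659) and Mrps5 (-0.47 ± 0.15, adjusted p = 0.0875) did not pass. At an unadjusted p under 0.05 there were 13 members (22.5% of all genes), and DESeq2 called 4 lower (5.26%, against 5.08% of all genes with an adjusted p). The libraries did not overlap for 29 members lower (24.0% of all genes) and 0 higher (9.61%). The median member differed by -0.19 against -0.02 for all genes, and 59 of 76 were below zero (52.2% of all genes). With library totals in place of TMM factors the median of all genes moved to -0.14 and that of members to -0.30, and 6 members passed (7.89%, against 3.94% of all genes lower).

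Above zero in that comparison, without passing, were Mrpl14 (0.47), Mrps15 (0.28) and Mrpl33 (0.27), with adjusted p-values of 0.347, 0.257 and 0.492. Prdm16 RNA itself, at 273 ± 53.5 CPM in KO+f and 235 ± 58.0 in KO+s (SD, n = 3), overlapped between both groups.

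Mean levels were ordered alike in most members. The KO+s mean was under the KO+f mean, and that under both empty-vector means, in 51 of 76 members (67.1%) and in 23.2% of all genes. With TMM factors the order held for 50 members (65.8%) and 19.3% of all genes. KO+s was the lowest group for 63 members (82.9%, against 42.4% of all genes), KO+f for 8, WT+EV for 3 and KO+EV for 2. With TMM factors KO+s was lowest for 55 members (72.4%, against 32.3% of all genes) and KO+f for 14, so scaling moved part of that count. The highest was KO+EV for 36, WT+EV for 34 and KO+f for 6. The widest ranges of group means on the log2(CPM + 1) scale were those of Mrps5 (1.02), Mrpl52 (0.99) and Mrpl38 (0.97). Over the 12 leukaemia libraries, which share their groups, the non-member genes most like the summed members were Emg1, Ccdc99, Ndufb9, Dctpp1 and Gins2. Their Pearson correlations of log2 CPM were 0.98 for each, the highest of 9418 genes searched.

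Genes that build or serve the mitochondrial ribosome were followed from lists by role. Of 7 ribosomal proteins with other names, Gadd45gip1 (-0.66) and Ict1 (-0.58), a peptidyl-tRNA hydrolase built into the large subunit, were lower in KO+s than in KO+EV. Dap3 (-0.33), Ptcd3 (-0.34) and Mrp63 (-0.36) did not pass, nor did Aurkaip1 (0.08) and Chchd1 (0.04). In KO+f 0 of the 7 passed, and the lowest adjusted p was 0.0516 for Ict1.

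Among 25 assembly and rRNA-processing genes 5 were lower in KO+s and 0 higher (20%, median -0.19), close to the 16.6% of all genes. They were Wbscr16 (-1.04), Mpv17l2 (-0.79), Fastkd2 (-0.65), Mettl17 (-0.52) and Trub2 (-0.33). In KO+f 0 of the 25 passed by edgeR, and 1 had an unadjusted p under 0.05.

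Of 15 translation factors and other genes listed with them, 5 were lower in KO+s and 0 higher (33.3%, median -0.41), against 16.6% of all genes lower. Tsfm, which recycles the elongation factor Tu, had 31.8 ± 2.22 CPM in KO+EV and 14.9 ± 0.607 in KO+s (SD, n = 3), a change of -1.01 ± 0.15 (adjusted p = 0.000843). Gfm1, the translocase of elongation, fell by 0.79, Lrpprc, which stabilises mitochondrial mRNAs, by 0.68, Letm1 by 0.59 and Oxa1l, the insertase that receives the new proteins, by 0.41. In KO+f, Gfm2 (-0.61) and Gfm1 (-0.45) were lower (adjusted p = 0.0205 and 0.0293).

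Of 17 genes of mitochondrial DNA transcription and its regulators 2 were lower in KO+s and 0 higher (11.8%, median -0.06), under the 16.6% of all genes lower. Polrmt, the mitochondrial RNA polymerase, read 48.9 ± 3.08 CPM in KO+EV and 25.7 ± 2.62 in KO+s (-0.85, adjusted p = 0.00295). Ppargc1b, a coactivator of nuclear genes for mitochondria, read 14.2 ± 2.93 and 0.933 ± 0.838 (-3.85 ± 0.79, adjusted p = 0.00416). Of genes for the factors named with the promoter letters above, Gabpa (-0.05), Gabpb1 (-0.03) and Nrf1 (0.01) stayed near zero without passing. Yy1 and Esrra, also in this list, were not among the genes called, and SP1 and KLF genes were not in it. Myc (-0.10), Tfam (-0.15) and Ppargc1a (0.25, at 2.48 CPM in KO+EV) did not pass either. In KO+f, Polg was lower (-0.67, adjusted p = 0.0154).

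Aminoacyl-tRNA synthetases of mitochondria had 3 of 19 lower in KO+s and 0 higher (15.8%, median -0.26), close to the 16.6% of all genes lower. They were Pars2 (-0.72), Iars2 (-0.49) and Tars2 (-0.47). Proteases and chaperones of mitochondria had 7 of 10 lower and 1 higher (70% lower, median -0.55), where 16.6% of all genes were lower and 15.9% higher. The chaperones Trap1 (-0.85), Hspa9 (-0.81), Hspd1 (-0.82) and Hspe1 (-0.62) and the proteases Clpp (-0.82), Afg3l2 (-0.49) and Lonp1 (-0.47) were lower, and Clpx, the unfoldase that works with Clpp, was higher (0.52, adjusted p = 0.00650). In KO+f, Trap1 (-0.55) and Spg7 (-0.41) were lower and the other 8 did not pass. In KO+EV against WT+EV none of these 6 lists had a gene called, with 0 to 3 genes each at an unadjusted p under 0.05.

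**Figure D5:**
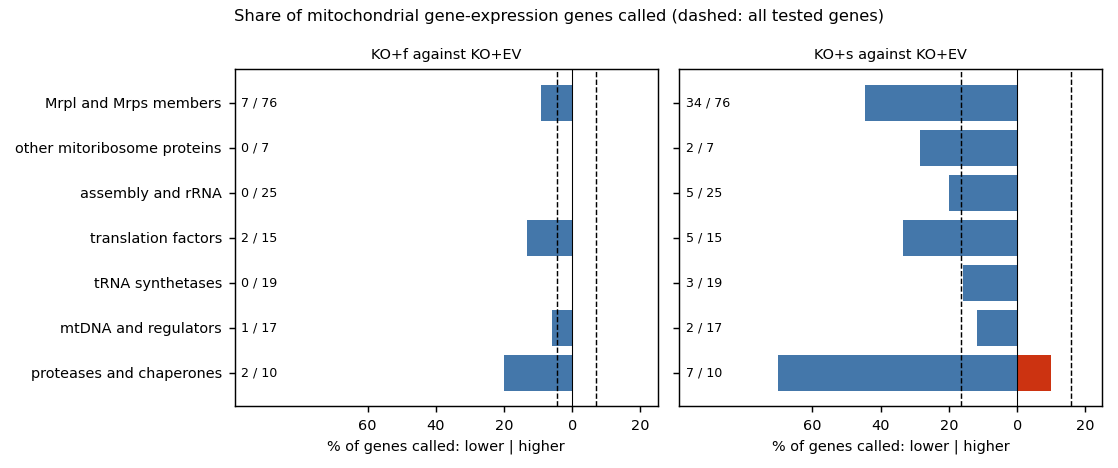
Share of genes called lower (blue, to the left) and higher (red, to the right) for the members and 6 related lists in KO+f and KO+s against KO+EV, with the number lower of the number tested at the left edge and dashed lines at the shares of all tested genes. In KO+s the members (34 of 76) and the proteases and chaperones (7 of 10) stand farthest to the left of the line.

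In HSCs no member was called in any comparison. In bone marrow 0 of 77 members passed in the libraries labelled KO against wild types, and edgeR called 0% of all genes lower and 0% higher. DESeq2 called 0 members too, and 0 had an unadjusted p under 0.05 (8.45% of all genes). The median member changed by -0.10 and the median of all genes by -0.03, with 61 of 77 below zero (53.8% of all genes). With DESeq2 these medians were -0.09 and -0.13, but DESeq2 was run without the filter on low counts. Without that filter edgeR gave -0.07 and -0.11. These all-gene medians cover low-count genes that the main fit left out. Single libraries set the members' median: without wild type 4 it was 0.01 with 36 of 77 below zero. Without wild type 1 it was -0.23 with 71 of 77 below zero and 16 members at an unadjusted p under 0.05. The share of all genes at that level was not computed for that fit. No member had groups that did not overlap, against 2.76% of all genes lower and 3.07% higher.

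The members nearest to a call in bone marrow were Mrpl54 (-0.40), Mrps26 (-0.36) and Mrpl52 (-0.36) below zero, with adjusted p-values of 0.595, 0.610 and 0.634. Above zero they were Mrps2 (0.26, 0.658), Mrpl1 (0.19, 0.740) and Mrpl50 (0.22, 0.748). Mrpl52 read 57.0, 100.3, 70.2 and 94.1 CPM in wild types and 59.7, 76.4, 57.1 and 57.9 in the libraries labelled KO, which overlap. Mrps5, the gene with the steepest fall in leukaemia, read 47.3, 59.0, 53.7 and 52.7 against 51.7, 47.5, 68.2 and 52.8 (0.04, adjusted p = 0.945).

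In fetal HSCs of the total knockout, 0 of 75 members passed by edgeR, which called 0% of all genes in either direction, or by DESeq2, and 3 had an unadjusted p under 0.05 (4.74% of all genes). The median member was 0.08 above wild type, against 0.00 for all genes, and 10 of 75 were below zero (50.1% of all genes). This direction moved in fits without 1 library, each of which leaves a same-numbered library without its pair. Without wild type 1 the median was -0.0091 with 41 of 75 below zero, without KO 3 it was -0.0050 with 42, without wild type 2 it was 0.05 with 21, and without wild type 3 or KO 1 it was 0.17 or 0.16 with 4 each. With same-numbered libraries as pairs (replicate block) the median was 0.08 with 12 of 75 below zero, 0 members were called and 9 had an unadjusted p under 0.05. After TMM scaling the summed CPM was higher in the knockout for each number (3836 and 4078, 4124 and 4348, 4831 and 5031). Without that scaling it was lower in the knockout for number 3 (4957.5 and 4818). The block fit called 176 of all genes, and the share of all genes at the unadjusted level was not computed for it. Mrps6 read 62.5, 59.4 and 73.7 CPM in wild types and 50.8, 53.1 and 51.6 in knockouts, with no overlap (-0.29 ± 0.11, adjusted p = 1.00). Mrpl19 (0.26) and Mrpl1 (0.28) were above without overlap, at 64.3, 64.6 and 67.1 against 70.0, 76.3 and 82.5 CPM for Mrpl19. Mrps35 (0.23), Mrps31 (-0.13) and Mrpl52 (-0.19) did not pass either. Non-overlap held for 2 members lower and 2 higher, against 7.31% and 3.67% of all genes. Mrpl52 read 34.8, 39.2 and 57.2 CPM in wild types and 33.2, 34.5 and 43.8 in knockouts, lower in each of the 3 same-numbered pairs.

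In the f-PRDM16 knockout, 0 of 77 members passed by edgeR, which called 0% of all genes in either direction, or by DESeq2, and 0 had an unadjusted p under 0.05 (2.62% of all genes). The median member was 0.07 above wild type against -0.01 for all genes, and 19 of 77 were below zero (51.3% of all genes). Without KO 1 the median was -0.04 with 47 of 77 below zero, without wild type 2 or 3 it was 0.0064 or 0.0049, and without wild type 1 or KO 3 it was 0.14 with 7 or 5 below zero. With the pairs as a block the median was 0.07, 0 members were called and 5 had an unadjusted p under 0.05. The share of all genes at that level was not computed for the block fit. With library totals in place of TMM factors both medians were below zero, -0.02 and -0.10. Mrpl19 read 132, 104 and 117 CPM in wild types and 140, 148 and 131 in knockouts (0.33, adjusted p = 0.999), which overlap by a narrow margin. Mrpl44 (0.23) and Mrpl33 (0.22) were above it, and Mrpl52 (-0.35), Mrps6 (-0.18) and Mrps17 (-0.12) below. For Mrpl52 the libraries read 45.5, 57.1 and 47.6 against 44.3, 43.2 and 23.6, so that KO 3 was far below the others. Non-overlap held for 2 members lower (5.88% of all genes) and 1 higher (1.43%).

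Granulocyte RNA varied widely between fetal libraries, and 0 of 12 markers passed in either comparison by edgeR, with 5 and 1 at an unadjusted p under 0.05. The summed CPM of 12 granulocyte markers was 174 to 1814 in wild types and 769 to 13393 in total knockouts, and 3486 to 21425 and 7836 to 47472 in the f-PRDM16 set. Its part in the members' values was not tested.

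Differences between the 3 HSC knockout effects were tested as interactions over the 75 members listed in all 3 tables. None passed for the total knockout against the f-PRDM16 knockout (0% of all genes), the total knockout against bone marrow (0.0123%) or the f-PRDM16 knockout against bone marrow (0.00617%). In the main edgeR fit 0 of the 75 had an unadjusted p under 0.05 in each, and DESeq2 called 0. With the replicate block 0 members passed, but 0, 5 and 2 were at that unadjusted level, in the order above. Without bone marrow wild type 1 it was 10 for the total knockout and 7 for the f-PRDM16 knockout, each against bone marrow, and 0 passed. The share of all genes at that level was not computed for the interactions. The leukaemia and HSC effects were not compared in a test, since the tables differ in preparation.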

How the data were processed

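Poly(A) RNA was sequenced from 32 libraries (12 leukaemia, 20 HSC), in 4 tables of raw counts per gene symbol. Per the labels, libraries were TruSeq, with SMARTer amplification for HSCs. The submitters' processing notes name bcl2fastq 2.17, TopHat, DESeq and mm9 for the deposited counts. Counting tool, annotation and strand setting: not given in the sources used here, so overlapping and antisense genes cannot be told apart.

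Counts were tested as deposited with edgeR 4.0.16 (filterByExpr, TMM factors, robust quasi-likelihood F test) in R 4.3.3, with Benjamini-Hochberg adjustment over all genes tested (12958 in leukaemia, 13495 in bone marrow, 15590 and 13631 in fetal liver). The threshold was 0.05. One fit held all 12 leukaemia libraries and each HSC table had its own, with a joint HSC fit for 3 interactions. All listed members passed the filter. CPM used library totals without spike-in rows, and CPM per kilobase used GENCODE M21 exon lengths. Each p-value sets a difference between groups against the spread between libraries, estimated over all groups of the fit and partly shared across genes. What that spread covers is limited by the labels, which do not state pooling of animals.

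Members and lists were chosen with earlier results of these data known. Members were named where they had the smallest p in each direction, or as landmarks of the ribosome. Genes of the related lists beyond the 3 with the smallest p were named after their values were seen. Alternatives were DESeq2 1.42.0, other scalings, no filter, the compared pair alone, a replicate block and each library left out. The WT+EV control for the add-backs and the group order with TMM factors were chosen after seeing the data. The code was tested on simulated data.

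In both fetal tables, libraries with the same number deviated together, so the numbers were taken to pair them. The correlations were 0.415, 0.202 and 0.626 for the total knockout and 0.624, 0.351 and 0.519 for the f-PRDM16 knockout. For number 2 of the total knockout, however, the best match in the other genotype was number 1, so that pair is uncertain. This pairing comes from the data, and the block changed no member's call.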

Additional observations from a re-analysis of the deposited data

Results flagged for a closer look

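Mrpl52 in bone marrow had 1 library labelled KO far from the others of its group. That library, KO 2, read 76.4 CPM, and the other 3 read 59.7, 57.1 and 57.9. The gap divided by the range of the group was above Dixon's critical value for 4 samples. It was the 1 such case among 20 groups of values tested, and chance flags about 1 in 20. Bone marrow wild types read 57.0 to 100.3 CPM, so KO 2 lies within their range.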

How the results depend on the processing

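The direction of the KO+s fall was kept in all alternatives run. Members lower were 32 with RLE factors, 36 with upper-quartile factors, 39 with library totals and 24 with no filter. They were 35 with DESeq2, 31 with the pair alone and 29 with a replicate block. All genes called in either direction were 4189, 4278, 4404, 3801, 4786, 3913 and 4177, in that order. With library totals the KO+s median of all genes moved to -0.10 and that of members to -0.48. Leaving out 1 library gave 16 to 29 members there (2732 to 3821 genes in all), and 1 to 5 members in KO+f (559 to 1533 genes). In KO+s against KO+f it gave 0 to 1 members (37 to 388 genes), in KO+EV against WT+EV 26 to 425 genes and in bone marrow 0 to 3 genes. For KO+f the members lower were 11 with DESeq2, 3 with library totals, 3 with no filter, 4 with the replicate block and 2 with the pair alone. All genes called in either direction there were 2248, 1357, 1144, 1442 and 392, in that order. For KO+s against KO+f the members lower were 4 with DESeq2, 6 with library totals and 0 with the pair alone (1381, 730 and 625 of all genes). The leukaemia and bone marrow numbers did not pair the libraries.

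Over all genes DESeq2 called 903 in KO+EV against WT+EV, 2248 in KO+f against KO+EV, 1381 in KO+s against KO+f, 84 in bone marrow, 77 in the total knockout and 4 in the f-PRDM16 knockout. The pair alone gave 1 gene in KO+EV against WT+EV and 392 in KO+f against KO+EV. The replicate block gave 176 genes in the total knockout. Values that changed sign, none of them called, ranged with 1 library left out from -0.010 (without KO+EV 3) to 0.32 for Mrpl11 in KO+f. In KO+s the ranges were -0.0066 to 0.35 for Mrpl33, -0.058 to 0.38 for Mrps18c and -0.078 to 0.24 for Mrpl1, each lowest without KO+s 3. For Mrpl52 in the total knockout it was -0.35 to 0.0396, highest without FL wild type 3, which breaks a pair. Against WT+EV, Mrpl33 and Mrps18c in KO+s were at -0.31 and -0.033. Without numbered Gm genes and Cdkn2d in the totals, the summed CPM in the total-knockout table was 5119 in wild types and 5207 in knockouts. The cause of these changes was not tested. Depth limits precision most for members under 5 CPM: Mrpl23 and Mrps36 in leukaemia, and Mrps36 in bone marrow and part of the f-PRDM16 libraries.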

Other observations

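Levels of a few members differed between the fetal liver tables, which are separate sets, so no test was made. The total-knockout table also differed in make-up: 26 of its rows had names turned into dates, and 9.25 to 10.3% of its counts fell on numbered Gm genes, against 0.109 to 0.197% in the f-PRDM16 table. Whether both were counted with one annotation is not stated, and its part in these values was not tested. Mrps36 had a median of 25.7 CPM in the total-knockout table and 5.02 in the f-PRDM16 table, with both genotypes pooled. Mrps33 had 53.6 and 16.8, Mrps28 181 and 78.4, and Mrpl23 24.4 and 11.1. Mrps18c (38.5 and 81.0) and Mrpl42 (76.6 and 161) went the other way. Mrpl23 had 1.47 CPM in leukaemia. Mrpl23 and Mrps36 have annotated pseudogenes.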
